A study of Mus musculus with 2 samples.

Results

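Conventional CD4 T cells, the helper T cells that carry CD4 and lack the regulatory factor Foxp3, made up 756 of the 8662 barcodes of a leukocyte library from mouse brain (8.73%), out of 23186 barcodes in the whole study. They were chosen by their transcripts. A barcode needed at least 1000 UMIs (unique molecular identifiers, which count captured RNA molecules) and at most 20% mitochondrial UMIs. It needed a UMI of at least 2 of 5 T cell receptor genes (Cd3d, Cd3e, Cd3g, Trac and Trbc2), at least 1 Cd4 UMI, and no UMI of Cd8a, Cd8b1 or Foxp3. Fewer than 40 UMIs per 10000 could come from the complement genes C1qa, C1qb and C1qc, which mark microglia. Of 7768 barcodes within the UMI and mitochondrial limits, the 756 cells were 9.73% (95% Clopper-Pearson interval 9.08 to 10.4). Of 2321 barcodes with the T cell receptor genes and low C1q they were 32.6% (30.7 to 34.5).

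The study profiled brain cells of C57BL mice aged 8 to 13 weeks and labelled 24 h, modelling neuromyelitis optica spectrum disorder, a disease in which antibodies against the astrocyte water channel aquaporin-4, complement and leukocytes damage the tissue. Dissociated brain was separated into a CD45-positive subset, meaning cells with the common leukocyte protein, and a CD45-negative subset, and each gave 1 droplet library of transcript 3' ends. Both subsets came from brain labelled with the disease model. The strain is given only as C57BL. How the model was set up, how many mice were used and how the subsets were sorted apart was not stated in the labels read here. No control library was analysed here. With 1 library per subset there are no replicates, so no test was made, and every interval covers counting error only.

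Helper T cells read antigen on class II MHC through the T cell receptor and the CD4 co-receptor, and act through secreted cytokines and through surface ligands such as CD40 ligand. Textbook subsets are marked by a leading transcription factor or by cytokines: Th1 (Tbx21, Ifng), Th2 (Gata3, Il4, Il5, Il13), Th17 (Il17a) and follicular helper cells (Bcl6, Cxcr5, Il21). A naive T cell recirculates through lymph nodes with homing receptors such as Ccr7, whereas activated and memory cells enter inflamed tissue, the brain included, with integrins and receptors for inflammatory chemokines such as Cxcr3.

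The cells held 1040 to 40189 UMIs each, with a median of 5235 UMIs, 1814.5 detected genes and 1.81% mitochondrial UMIs. Their summed 4237330 UMIs set a floor of 0.708 CPM (UMIs of a gene per 1e6 UMIs) for 3 UMIs, and 0 of 756 cells allows a share of cells with a UMI of up to 0.397% (3 of 756). This does not limit the share of cells that express a gene. Other classes of the same library served for comparison: 763 CD8 T cells (Cd8a or Cd8b1 and no Cd4 UMI), 30 regulatory T cells (the same rule with a Foxp3 UMI), 123 natural killer (NK) cells with fewer than 2 receptor genes, and 3636 microglia. A further 638 T cells, 27.5% of the 2321, had neither a Cd4 nor a Cd8 UMI and entered no comparison. Microglia, which should lack T cell transcripts, give a background, at a median of 10686 UMIs against 5235. It holds free RNA and may hold mixed barcodes, since the microglia rule did not leave out barcodes with T cell receptor genes. Of barcodes within the UMI and mitochondrial limits, 466 had 2 or more receptor genes and C1q at or over the limit. How many of them are among the microglia was not counted. A share of cells with a UMI at or below the microglial share is not told apart from this background. Microglia may also make a transcript themselves.

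The rule genes themselves are a description only. Cd4 had exactly 1 UMI in 367 cells (48.5%) and 2 or more in 389. All 5 receptor genes were seen in 540 cells (71.4%) and only 2 of them in 32. The cell nearest the C1q limit had 39.94 UMIs per 10000, and the nearest of 55 cells kept out by that limit alone had 41.77. The shallowest cell had 1040 UMIs, and the nearest of 9 cells kept out by the UMI limit alone had 999. A cell of the same kind that happened to give no Cd4 UMI is not counted. Between the libraries 27 barcodes were shared, and 1 of them was among the 756.

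The markers of the label that the rule did not use set the cells apart from microglia. Icos, a costimulatory receptor, had a UMI in 67.7% of the cells against 4.70% of microglia, and Tnfrsf4 (OX40), a receptor induced by activation, in 47.8% against 3.58%. The whole list given with the label (Cd3e, Trac, Cd4, Tnfrsf4, Icos) summed to 2187 CPM, and 38.8 CPM in microglia. In CD8 T cells it summed to 1386 CPM and in regulatory T cells to 3354 CPM. The list thus does not set conventional cells apart from regulatory ones. Cd3e, Trac and Cd4 are rule genes, so these sums are a description. The 12 microglia markers, all detected, summed to 1237 CPM against 32110 CPM in microglia. NK markers summed to 170 CPM against 9501 CPM in NK cells. Both contrasts are descriptions too, since the classes were chosen in part on these lists. Microglia were chosen on C1qa, C1qb, C1qc and Tmem119, and NK cells on Ncr1, Klrb1c, Klra8 and Klre1. The 8 B and plasma cell markers summed to 106 CPM against 151 CPM in microglia. The 10 monocyte and macrophage markers, all detected, summed to 1068 CPM against 1720 CPM in microglia and 3451 CPM in CD8 T cells. The median cell had 5.31 and the highest 140 UMIs per 10000. This list holds Ly6c2, a leading gene of a sub-cluster described further on, so its sum does not measure monocyte RNA alone. The CD8 list, with Cd8a and Cd8b1 at 0 by the rule, summed to 544 CPM, and the 7 endothelial markers, all detected, to 207 CPM. Of 7 oligodendrocyte markers Mog was at 0 and 6 were detected, at 203 CPM in sum against 78.5 CPM in microglia. Of 8 neutrophil markers Ly6g and Mmp8 were at 0 and 6 were detected, at 40.6 CPM. Of 5 mast cell and basophil markers Mcpt8, Cpa3, Fcer1a and Ms4a2 were at 0. The 10 dendritic cell markers summed to 646 CPM, unevenly: the median cell had 1.61 and the highest 611 UMIs per 10000. A group of 13 cells led by such genes, described further on, goes against the label. The part of free RNA and of mixed barcodes in the levels given below was not tested beyond these values.

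Several genes of the Th1 program were widely detected. Cxcr3, the receptor for the interferon-induced chemokines, had a UMI in 61.0% of the cells (57.4 to 64.5) at 254 CPM, against 4.84% of microglia. After each cell was thinned to 1000 UMIs the Cxcr3 share was 20%. Stat4, which relays interleukin-12, was seen in 61.4% and the interleukin-18 receptor chain Il18r1 in 48.1% of the cells. Both were under 6% in microglia, at 5.23% and 3.33%. The master factor Tbx21 (T-bet) was read in far fewer cells, 13.5%, against 26.1% of CD8 T cells and 1.29% of microglia. At least 1 of Tbx21, Cxcr3 and Ifng had a UMI in 499 cells (66.0%, 62.5 to 69.4). The tissue-homing receptor Cxcr6 was in 44.3% of the cells, fewer than the 72.5% of CD8 T cells.

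Apart from Gata3, the leading factors and cytokines named here for the other helper programs were scarce. Other genes of these programs were more common. Of 15 Th17 genes 8 had a UMI in at least 5% of the cells. So had 5 of 12 Th2 and 7 of 12 follicular helper genes. The share of all genes past that limit was not counted. Il17a, the defining Th17 cytokine, had a UMI in 4 cells (0.529%, 0.144 to 1.35). The Th17 chemokine receptor Ccr6 was seen in 2.25% against 1.32% of microglia. Of the Th2 genes the factor Gata3, which T cells also use for other purposes, was in 26.6% of the cells, but Il4, Il5 or Il13 only in 13 cells (1.72%). Follicular helper cytokine Il21 had no UMI, its floor being 0.708 CPM, and no cell held both Bcl6 and Cxcr5. Bcl6 alone was in 3.18% of the cells, below its 22.0% in microglia. Whether microglia make Bcl6 themselves was not tested, so its share does not separate background from expression. Izumo1r (folate receptor 4) and Pdcd1 (PD-1), which follicular and chronically stimulated cells can carry, were in 22.6% and 23.3% of the cells, against 0.963% and 7.10% of microglia.

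**Figure D1:**
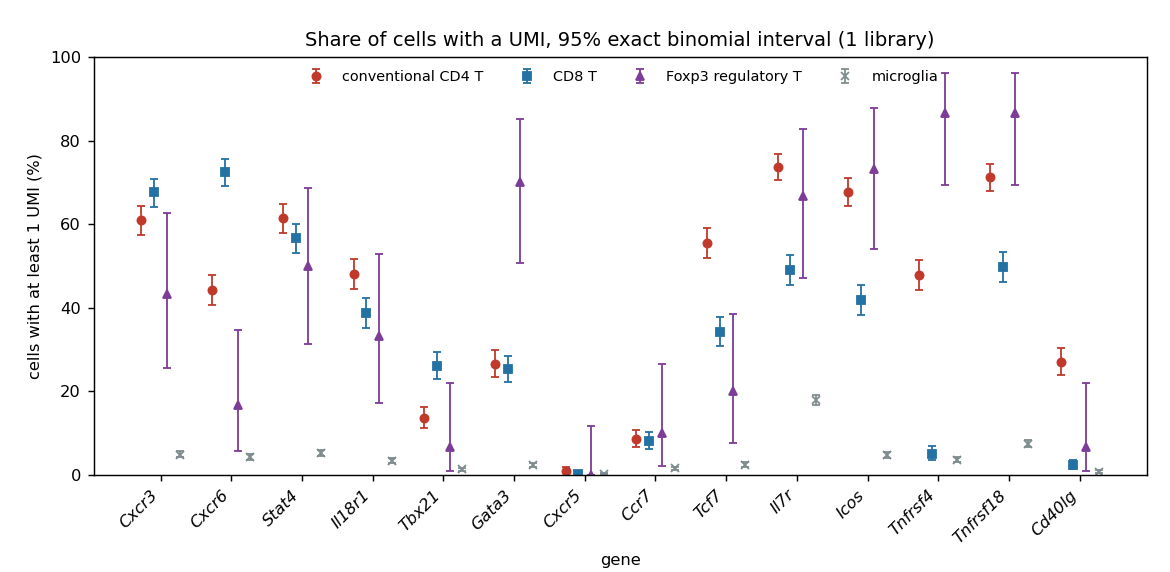
Share of cells with at least 1 UMI (vertical axis, percent) for helper, naive and activation genes in conventional CD4 T cells, CD8 T cells, regulatory T cells and microglia of the same library; lines are 95% exact binomial intervals. Cxcr3 is seen in 61.0% and Icos in 67.7% of the CD4 T cells, Cxcr5 in 0.926%.

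The lymph node homing receptor Ccr7 was seen in few cells, 8.60% against 1.51% of microglia, and in 2.38% after thinning. Several other genes of the naive and recirculating list were common. The factor Tcf7 was in 55.6% and Lef1 in 37.0% of the cells, the interleukin-7 receptor Il7r in 73.8%, and Klf2 with its target S1pr1, the exit receptor of lymphoid organs, in 54.0% and 47.2%. Microglial shares ran from 1.38% for Lef1 to 24.5% for Klf2. At least 1 of the activation and memory genes Cd44, Icos, Tnfrsf4 and Cxcr6 was present in 692 cells (91.5%, 89.3 to 93.4).

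Of 20 integrin and selectin ligand genes 6 had a UMI in at least 50% of the cells, and of 20 chemokine receptor and egress genes 2. How many of all genes pass this limit was not counted, so nothing particular to these lists follows. Itga4, whose product pairs with Itgb1 to form the VLA-4 integrin used by T cells to enter the brain, was in 72.8% of the cells at 370 CPM, against 10.9% and 15.2 CPM in microglia. Itgal (LFA-1) was in 67.2% against 12.7%, and Itgb7 in 57.9% against 10.3%. Itgae (CD103), which holds resident T cells to epithelium, was in 1.59% of the cells against 1.46% of microglia. The chemokine receptor Ccr2 was seen in 33.5% of the cells against 14.6% of microglia.

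Cd69, an early activation and retention protein, was in 61.8% of the cells against 7.45% of microglia, and Tnfrsf18 (GITR) in 71.3%. Cd40lg, the ligand through which helper cells signal to B cells and myeloid cells, was in 27% against 0.715%. Within the cells, Tnfrsf18 was seen in 45.9% (37.2 to 54.7) of those with a Tnfrsf4 UMI and in 22.5% (19.3 to 26.0) of those without, after thinning to equal depth. Ctla4 had the thinned shares 13.5% and 8.67%, with intervals that overlapped, and Icos 26.3% and 25.8%. The inhibitory receptor Ctla4 had a UMI in 27.6% of all the cells, against 23.3% for Pdcd1. Lag3 (3.84% of the cells) and Havcr2 (2.51%) were below their microglial shares of 53.4% and 53.3%. Whether microglia make Lag3 and Havcr2 themselves was not tested, so these shares do not separate background from expression.

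Of 30 T cell cytokine genes 15 had a UMI in at least 5% of the cells. The share of all genes past this limit was not counted, so nothing particular to the list follows. At least 1 UMI of Ifng, Il2, Tnf, Il4, Il5, Il13 or Il17a was present in 196 cells (25.9%, 22.8 to 29.2). The share of microglia with any of these was not counted, so the 25.9% is not corrected for background. Tnf was in 84 cells (11.1%), below its 29.8% in microglia, which can make it themselves. Il2 was found in 63 cells (8.33%) and Ifng in 56 (7.41%), with microglial shares of 1.29% and 1.21%. Ifng was seen in 20.7% of CD8 T cells and 25.2% of NK cells. Lymphotoxin beta (Ltb), a membrane cytokine of lymphoid tissue, was in 86.5% of the cells. No UMI of Il3, Il9 or Il21 was found.

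A single barcode held most of the Il13, Ifng, Il2 and Il5 molecules. It was the deepest of the 756, with 40189 UMIs and 5265 genes, and carried 560 of the 562 Il13 UMIs, 189 of the 300 Ifng UMIs, 385 of the 479 Il2 UMIs and 21 of the 22 Il5 UMIs. This cell had 10 Cd4, 16 Cd3d and 15 Trac UMIs, 80 UMIs of Tnfrsf4, 5 of Gata3 and none of Tbx21 or Il1rl1, the interleukin-33 receptor of type 2 lymphoid cells. Without it the Ifng level was 26.4 CPM in place of 70.8, that of Il2 22.4 in place of 113, and that of Il13 0.477 in place of 133 CPM. The next Ifng cell held 37 UMIs and the third 3. Of the 46 Il17a UMIs, 37 came from 1 cell, which also had 6 Il17f UMIs and 1 of Il22. Tnf was spread more evenly, its highest cell having 8 of 117 UMIs. Most UMIs of Ifng, Il2, Il5, Il13 and Il17a thus came from 1 cell each. Scrublet called 7 of the 756 barcodes doublets (0.926%), and none in the sub-cluster of 244 cells that holds the deepest one. Whether that barcode held 1 cell was not tested further.

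**Figure D2:**
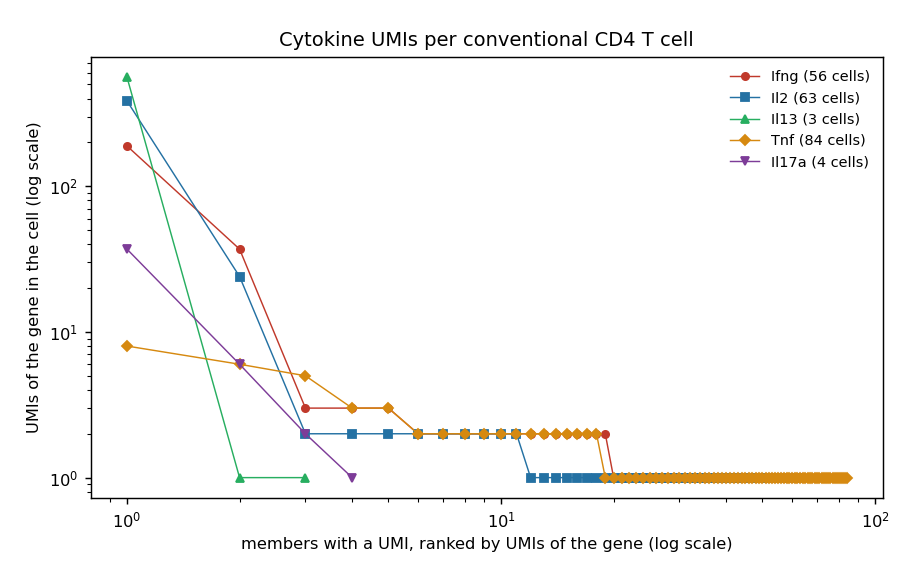
UMIs of Ifng, Il2, Il13, Tnf and Il17a per cell (vertical axis, log scale) in the conventional CD4 T cells that had any, ranked from highest to lowest (horizontal axis, log scale). For Il13, Il2 and Ifng the first cell holds 560, 385 and 189 UMIs and most others hold 1 or 2; Tnf has no such cell.

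Against CD8 T cells, the conventional CD4 T cells had higher levels of Tnfrsf4, Cd40lg, Izumo1r and Maf, among others, and lower levels of cytotoxic genes. Both classes came from the same library. A gene was called where the ratio of summed CPM was at least 2-fold among 10498 genes with 20 or more UMIs in both classes together. Of all these genes, 3.72% were called higher and 4.44% lower in the CD4 cells, and the median log2 ratio was 0.03.

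Tnfrsf4 had 274 CPM in CD4 and 13.5 CPM in CD8 cells, 20.4-fold higher (95% exact conditional interval 16 to 26.2). Cd40lg stood at 65.8 and 4.11 CPM, 16-fold higher (10.4 to 26.0). Both code for tumour necrosis factor family members. Not every gene of that family was higher: Cd27 had 109 against 128 CPM. Tnfsf8 (CD30 ligand) was 6.4-fold higher (4.93 to 8.43) and Tnfsf11 (RANKL) 6.75-fold (4.16 to 11.5). Izumo1r was 8.63-fold higher (6.25 to 12.2), the chemokine receptor Ccr4 9.92-fold (4.5 to 25.8), the T cell receptor adaptor Trat1 7.5-fold (5.22 to 11.1) and the growth factor gene Bmp7 11.2-fold (5.39 to 26.9). Il2 was 15.9-fold higher, a value that rests on the deepest cell: without it the log2 ratio was 1.66 instead of 3.99. For Ifng, with 70.8 CPM against 57.6 CPM, leaving out that cell turned the direction, from a log2 ratio of 0.30 to -1.12. The transcription factor Maf was at 283 CPM against 50.7 CPM, 5.58-fold higher (4.88 to 6.38).

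Lower in the CD4 cells were the granule and killer receptor genes. Gzma (granzyme A) had 31.4 CPM against 847 CPM, 27-fold lower (22.7 to 32.3). In 8.20% of the CD4 cells and 7.84% of microglia it had a UMI, so its share does not separate background from expression in CD4 cells. Gzmb was 9.08-fold lower (8.38 to 9.85) and the pore-forming protein Prf1 8.29-fold lower (6.18 to 11.4). Nkg7, a granule membrane protein, had 418 against 2348 CPM, and Ccl5, a chemokine stored by effector T cells, 1892 against 8036 CPM. Both were nevertheless frequent in CD4 cells, with Nkg7 in 53.8% and Ccl5 in 65.6% of them; microglia had Nkg7 in 14.7% and Ccl5 in 60.1%, at 471 CPM. The factor Eomes (15.8-fold, 8.12 to 35.0), Crtam (25.8-fold, 10.8 to 80.6), Cd160 (20.1-fold, 12.7 to 33.7) and the integrin Itgax (14.6-fold, 8.00 to 29.8) were lower as well. Gm44175, with 1 UMI against 266, lies on chromosome 6 between Cd8b1 and Cd8a, at 71354351 to 71360829 (GRCm38), genes the rule uses. Granzyme genes are near-identical in parts and their reads may be shared.

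By list, 16 of 18 cytotoxic genes were at least 2-fold lower and none higher, with a median log2 ratio of -2.34 (all genes 0.03; 4.44% lower). Cell cycle genes had 16 of 20 lower and a median of -1.49. Mki67, which marks dividing cells, had 26.2 against 83.2 CPM, but its share of 5.56% of the CD4 cells was below the 7.43% of microglia. Whether dividing microglia give that share was not tested, so it does not separate background from expression. The naive and recirculating list went the other way, with 8 of 16 higher, 1 lower and a median of 0.93, which became 0.52 without the 13 cells with dendritic cell genes. Among its members Il7r was 2.73-fold (2.55 to 2.92), Klf2 2.64-fold (2.42 to 2.88), S1pr1 2.46-fold (2.14 to 2.82) and Tcf7 2.33-fold (2.08 to 2.61) higher. Ccr7 was 45.6 against 18.3 CPM, a ratio that ended without those 13 cells, at a log2 ratio of 0.08 instead of 1.31. The 25 activation and memory genes were mixed, 10 higher and 3 lower: Icos was 2.28-fold (2.08 to 2.50) and Tnfrsf18 2.87-fold (2.63 to 3.13) higher, while S100a6, Lgals1 and Vim, a calcium-binding protein, a galectin and an intermediate filament, had log2 ratios of -1.27, -1.13 and -1.01.

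None of 19 type I interferon-stimulated genes differed 2-fold (median -0.36), nor did any of 14 T cell receptor signalling genes outside the rule (median -0.06). Of 15 Th1 genes 3 were lower, where 4.44% of all genes were, and none higher. Their median was -0.29 and their sum 5141 against 14950 CPM. Of 11 Th17 genes 4 were higher and 1 lower (median 0.74), where 3.72% of all genes were higher. Of 8 Th2 genes and of 8 follicular helper genes, 3 each were higher and none lower (medians 0.49 and 0.40). Cxcr3 was at 254 and 233 CPM, a ratio of 1.09 (1.0 to 1.18), and Tbx21 at 27.9 and 51.0 CPM, 1.83-fold lower (1.47 to 2.29). Of 23 immediate early genes, which dissociation can induce, 1 was higher and the median was 0.55. These counts describe 2 sums of cells from 1 library, and nothing particular to a list follows from them.

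**Figure D3:**
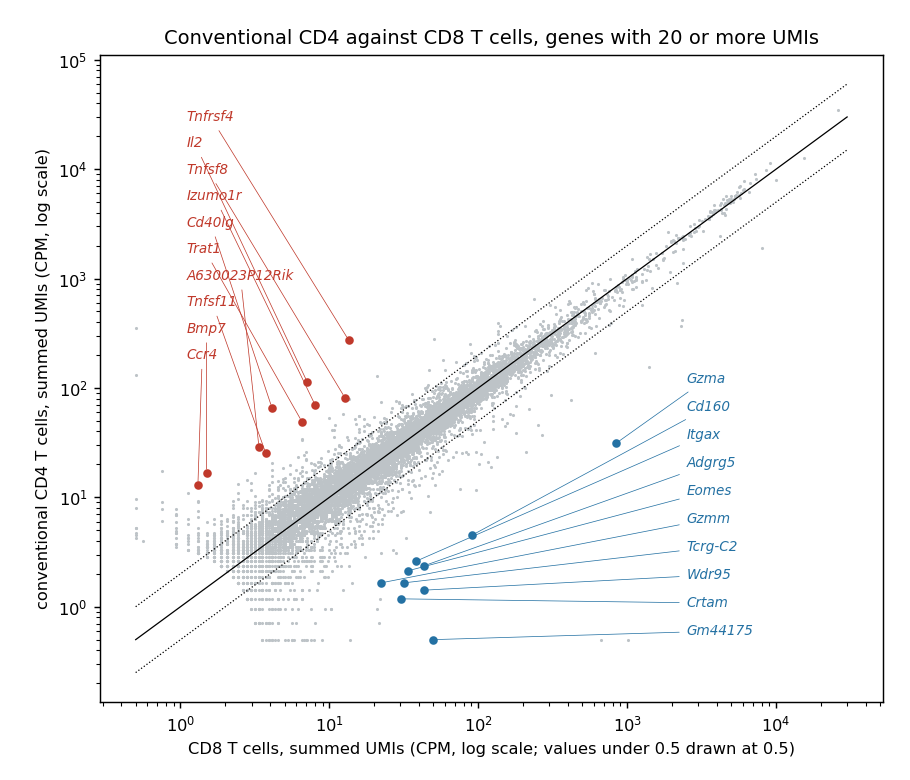
Summed level of each gene in conventional CD4 T cells (vertical axis, CPM, log scale) and CD8 T cells (horizontal axis, CPM, log scale), for 10498 genes with 20 or more UMIs in both together; named genes are those with the largest ratios, and dotted lines mark 2-fold. Tnfrsf4 and Cd40lg lie above the diagonal at 274 and 65.8 CPM, Gzma below it at 31.4 against 847 CPM.

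Against the 30 regulatory T cells, which differ from the CD4 cells by the Foxp3 UMI alone in the rule, the conventional cells had lower levels of the regulatory program and higher levels of Bcl2 and Tcf7. Only 248075 UMIs stand behind the regulatory cells, and 33875 of them came from 1 cell. The floor of the regulatory cells was 12.1 CPM, so that counting error alone can carry a gene of few UMIs past 2-fold. Of 9251 genes tested, 10.3% were called higher and 11.7% lower (median log2 ratio -0.09). With TMM scaling, which moved all ratios up by 0.19 on the log2 scale, 1328 were higher and 701 lower in place of 950 and 1081.

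All 14 measured genes of the regulatory list were at least 2-fold lower in the conventional cells, with a median log2 ratio of -2.68. The interleukin-2 receptor chain Il2ra had 17.2 against 621 CPM, 36-fold lower (27.1 to 48.3), and the factor Ikzf2 (Helios) 52.4 against 863 CPM, 16.5-fold lower (13.6 to 20). Tnfrsf9 (4-1BB) was 33.1-fold lower (26.2 to 42.0), the interleukin-33 receptor Il1rl1 31.5-fold (19.2 to 52.9), and Ctla4 5.72-fold (4.71 to 6.91). Tnfrsf4, so much higher than in CD8 cells, was 6.42-fold lower (5.74 to 7.18) than in the regulatory cells, at 274 against 1762 CPM. Il2ra and Ikzf2 were seen together in 12 of the 756 cells (1.59%), in 12 of 763 CD8 T cells (1.57%) and in 16 of 30 regulatory cells (53.3%, 34.3 to 71.7).

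Higher in the conventional cells was Bcl2, which protects lymphocytes from death, with 588 against 52.4 CPM, 11.2-fold (6.55 to 21.1). Klf2 was 6.56-fold (3.90 to 12) and Tcf7 5.70-fold (2.99 to 12.5) higher. Cd40lg was 8.17-fold higher (2.24 to 67.8) against 2 UMIs, and Themis, a T cell signalling protein, 15.1-fold (4.15 to 125) against 2 UMIs. The Rab GTPase regulator Tbc1d4 was 19.7-fold higher, but 1 UMI in the regulatory cells leaves its interval at 3.52 to 782. Ifng had no UMI in the regulatory cells and was at least 5.85-fold higher against their floor, a bound that the deepest cell carries (log2 ratio 1.13 without it). Of 15 Th1 genes 10 were higher and 2 lower, with a median of 1.25, and of 16 cytotoxic genes 11 were higher and 3 lower. Gzmb was among the lower, at 155 against 641 CPM. With equal weight per cell the median log2 ratio was 0.86 for the Th1 list. For the cytotoxic list it was 0.92 in place of 1.31. Of 15 glycolysis and hypoxia genes 6 were lower and none higher (median -0.90), with Ldha at 357 against 718 CPM.

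Against the 123 NK cells the contrast was that of receptor-bearing T cells with innate killers. Of 9491 genes 8.52% were called higher and 8.29% lower (median log2 ratio -0.10). With TMM scaling, a shift of 0.19, 1020 were higher and 592 lower in place of 809 and 787. Tnfrsf4 was 93.8-fold higher (25.9 to 776) against 2 UMIs, and Cd6, which binds ALCAM on barrier endothelium, 63.1-fold (21.6 to 307) against 3 UMIs. Cd5, an inhibitor of T cell receptor signalling, had no UMI in NK cells and was at least 55.8-fold higher. Il7r was 14.8-fold higher (10.3 to 22.0). Gzma was 168-fold (141 to 201), Prf1 43.6-fold (32.3 to 60.1) and Eomes 119-fold (61.3 to 265) lower, and 15 of 17 cytotoxic genes were lower with 1 higher. The Klra genes, led by Klra9 at 2 against 290 UMIs, were lower too, but they are a family with shared sequence and NK cells were chosen in part on Klra8.

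Interferon-stimulated genes separated the CD4 cells from NK cells but not from CD8 or regulatory T cells. Against NK cells 11 of 19 were higher and none lower, with a median log2 ratio of 1.16, where 8.52% of all genes were higher. Against regulatory T cells 1 of 19 was higher and 3 lower (median -0.0083). The list summed to 5350 CPM in CD4, 5357 in CD8, 7369 in regulatory T and 1264 in NK cells. Its level is thus not particular to the CD4 cells. Ifi27l2a was at 2688 CPM in CD4 cells, 1884 CPM in CD8 cells, 388 CPM in microglia and 81.8 CPM in NK cells, 32.9-fold higher than in NK cells (25.3 to 43.5). It had a UMI in 92.2% of the CD4 cells. With ribosomal and mitochondrial genes left out, it was 1 of the 20 genes with most UMIs in them, besides Malat1, Tmsb4x, Tpt1 and B2m. Isg15 was 7.73-fold higher than in NK cells (5.33 to 11.7) and Ifit3 4.60-fold (2.98 to 7.49).

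**Figure D4:**
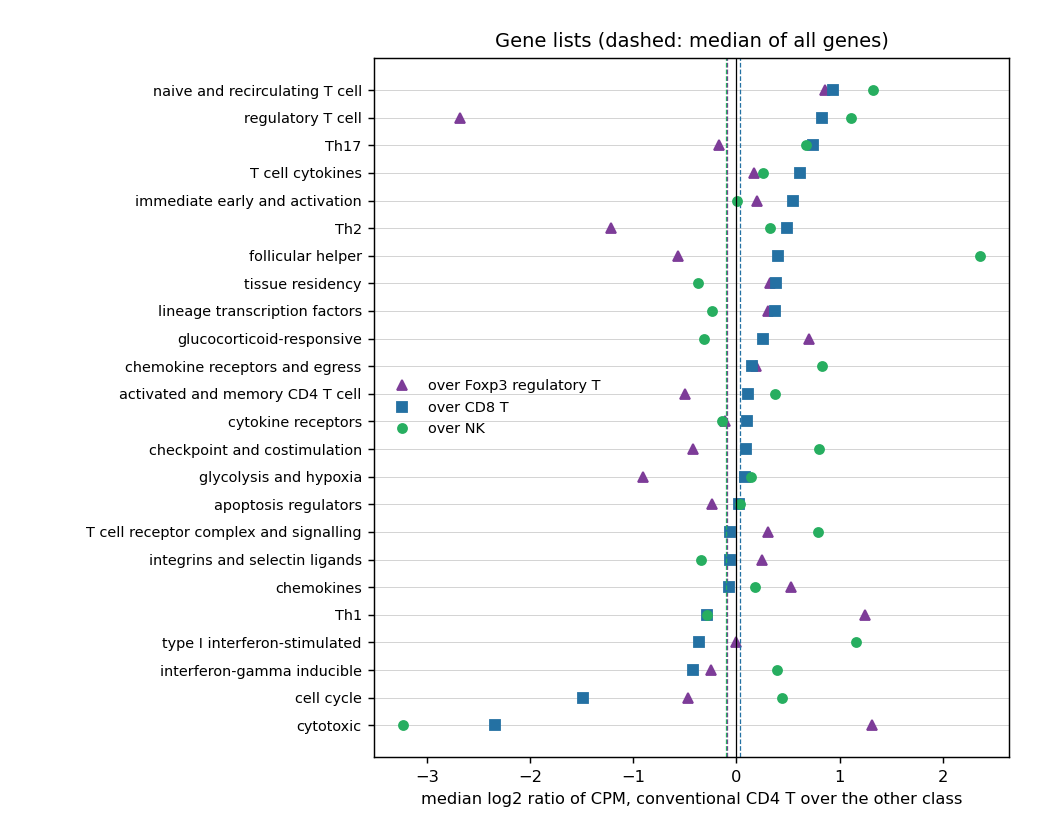
Median log2 ratio of summed CPM (horizontal axis) of each gene list, conventional CD4 T cells over CD8 T, regulatory T and NK cells; dashed lines are the medians of all genes tested. The cytotoxic list lies at -2.34 against CD8 T and -3.23 against NK cells, and the regulatory list at -2.68 against regulatory T cells.

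The 756 cells were then clustered among themselves, without T cell receptor V genes, mitochondrial and ribosomal genes, which gave 6 sub-clusters. Because the clusters were built from the expression of these same cells, their genes are a description. Sub-cluster 1, with 314 cells (41.5%), was led by Fgl2, Itga1, Nkg7, Ccl5, Gzmb, Fasl, Tbx21 and Ly6c2. Ccl5 was at 3251 CPM in it and 840 CPM in the other cells, Nkg7 at 719 and 186 CPM, and Tbx21 at 45.4 and 14.2 CPM. Sub-cluster 2, with 244 cells (32.3%), was led by Tnfsf8, Adk, Rflnb, Ramp3, Trib2, Il6st, Tnfrsf4 and Il6ra. Tnfrsf4 was at 486 CPM in it and 182 CPM elsewhere. Cxcr6 had a UMI in 13.1% of sub-cluster 2 and 63.1% of sub-cluster 1, and S1pr1 in 65.2% and 35.7%, at median depths of 4922 and 5544.5 UMIs. The deepest, cytokine-rich cell was in sub-cluster 2, whose Ifng level of 184 CPM came from 4.51% of its cells.

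Sub-cluster 4, with 50 cells (6.61%), was led by Il17re, Ltb4r1, Ramp1, Actn2, Tmem176a, Tmem176b, Tmem80 and Cysltr1. Il17re, a chain of the interleukin-17C receptor, was at 42.7 CPM against 2.07 CPM, and Tmem176a at 443 against 63.7 CPM. Ccr6 was in 16% and Rora, an orphan receptor of Th17 and other lymphocytes, in 80.0% of its cells. Il17a was in 4.00% of them, with 43 UMIs in 2 cells (115 CPM), and at most 1.56 CPM in any other sub-cluster. The cell with most Il17a UMIs was 1 of these. Trdc, the constant gene of the delta receptor chain, had 27 UMIs in 1 cell, and Cd163l1 had 13 UMIs in 3 cells. Trdc also had 22 UMIs in 7 cells of sub-cluster 1. Trac was in 96.0% of sub-cluster 4. Whether any of these cells carried a gamma-delta receptor, which would go against the label, was not tested. Sub-cluster 5, with 46 cells (6.09%), had a median of 1488 UMIs, 5.56% mitochondrial UMIs and 21.3 C1q UMIs per 10000, and was led by Med14, Zfp329, Paxbp1, Lpar6, Rab43, Cfl2, Nvl and Mfsd4a, none of them a T cell marker.

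Sub-cluster 6 went against the label. Its 13 cells (1.72%), with a median of 10624 UMIs, were led by Il4i1, Stxbp6, Fnbp1l, Plbd1, Ccl22, Gpr141, Cfp and Gda, and carried class II MHC genes: Cd74 was at 5601 CPM and H2-Aa at 2005 CPM, where the other sub-clusters had at most 89.6 and 82.0 CPM. Flt3, a growth factor receptor of dendritic cells, was at 77.6 CPM and Trac at 188 CPM. Scrublet called 3 of these 13 barcodes doublets (23.1%). Their Ccr7 level of 737 CPM set that of the 756 cells, which was 45.6 CPM with them and 19.3 CPM without. H2-Aa without them stood at 26.0 CPM.

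**Figure D5:**
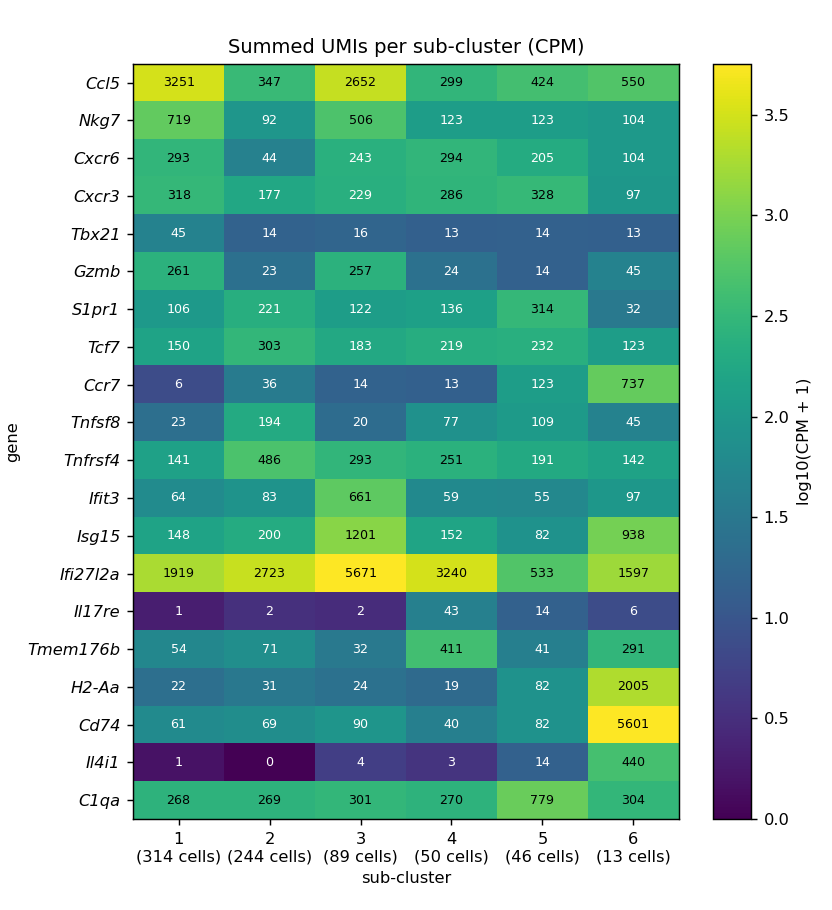
Level of 20 genes (vertical axis, color as log10 of CPM + 1) in the 6 sub-clusters of the conventional CD4 T cells, with the number of cells of each. Ccl5 is highest in sub-clusters 1 and 3 (3251 and 2652 CPM), Tnfrsf4 in 2, Ifit3 in 3, and Cd74 in 6; cells print the CPM.

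Sub-cluster 3, with 89 cells (11.8%), carried the interferon genes. It was led by Ifit3b, Ifit3, Ifit1, Usp18, Cmpk2, Oasl2, Ifi204 and Iigp1. Ifit3 was at 661 CPM in these cells and 71.2 CPM in the others, Ifit1 at 510 and 62.9 CPM, and Oasl2 at 195 and 27.3 CPM. Isg15 reached 1201 CPM and Ifi27l2a 5671 CPM. Ifit3 and Ifit3b are near-identical neighbours whose reads may be shared. Since these genes lead the cells together, the 250 bases before their start sites were read on both strands for GAAA, any 2 bases and GAAA again, the core of the interferon-stimulated response element. Of the 8 leading genes 5 matched a RefSeq promoter by symbol and 3 held the motif (Ifit3b, Ifit3 and Ifit1), as did 974 of all 32817 promoters (2.97%). Cmpk2 and Oasl2 did not hold these letters in this window. The promoters of Ifit3 (chr19:34583279-34583528, plus strand, matches 156 and 122 bases before the start) and Ifit1 (chr19:34640639-34640888, plus strand, 104 and 85 bases before) are printed beside that of Oasl2 (chr5:114896684-114896933, plus strand) to compare genes of 1 sub-cluster with and without it. Isg15 (chr4:156200819-156201068, minus strand), high in the same cells though not a leading gene, had 3 overlapping matches 78, 72 and 66 bases before the start. Sequences are from RefSeq, GRCm38.p6, read 5′ to 3′ on the gene's strand, with motif matches in capitals.
Ifit3: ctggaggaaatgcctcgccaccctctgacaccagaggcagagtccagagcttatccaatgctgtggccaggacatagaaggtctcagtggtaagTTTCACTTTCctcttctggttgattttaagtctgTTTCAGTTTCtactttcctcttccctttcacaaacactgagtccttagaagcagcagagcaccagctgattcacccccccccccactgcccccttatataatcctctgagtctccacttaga
Ifit1: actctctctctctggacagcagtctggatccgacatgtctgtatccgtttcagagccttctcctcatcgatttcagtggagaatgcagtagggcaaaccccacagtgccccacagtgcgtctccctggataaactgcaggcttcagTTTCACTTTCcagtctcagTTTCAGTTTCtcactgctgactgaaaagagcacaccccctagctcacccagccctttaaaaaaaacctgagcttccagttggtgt
Oasl2: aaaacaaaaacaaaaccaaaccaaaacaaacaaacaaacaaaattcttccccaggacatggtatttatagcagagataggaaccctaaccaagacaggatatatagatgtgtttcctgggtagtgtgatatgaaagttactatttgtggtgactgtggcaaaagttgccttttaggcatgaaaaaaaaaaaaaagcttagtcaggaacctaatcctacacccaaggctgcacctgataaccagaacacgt
Isg15: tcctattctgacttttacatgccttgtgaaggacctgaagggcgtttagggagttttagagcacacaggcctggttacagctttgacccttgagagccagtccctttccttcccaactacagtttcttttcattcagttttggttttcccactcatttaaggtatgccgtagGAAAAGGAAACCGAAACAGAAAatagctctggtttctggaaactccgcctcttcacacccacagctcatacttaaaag
A match is a string of letters and does not show binding.

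T cell receptor V genes were sparsely read by 3' ends. Trav genes gave 262 UMIs in 153 cells (20.2%) and Trbv genes 160 UMIs in 132 cells (17.5%), spread over 51 and 19 genes. The most frequent were Trav4-4-dv10 with 29 UMIs (11.1% of Trav UMIs) and Trbv2 with 29 (18.1% of Trbv UMIs), where CD8 cells had 5 UMIs of each out of 303 and 229. Clones could not be read from such counts.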

How the data were processed

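The deposited files hold raw UMI counts per gene and barcode, which the authors obtained from Cell Ranger 6.1.2, as the file headers state. The submitters' processing notes name mm10, and the labels' protocols an enzymatic digestion at 37°C. For cell calling, strand and earlier doublet removal the entry is: not given in the sources used here. The files list 32285 genes. Isoforms were not told apart. Some genes are not reported here.

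Cells were chosen by the rule in the text, and 25 gene lists and 14 marker lists were written with earlier results of these data known, as were the cells themselves. Counts were summed per class and scaled to CPM, with exact Poisson intervals. Shares carry Clopper-Pearson and ratios exact conditional binomial intervals at 95%. Genes at 0 were set to a floor of 3 UMIs over the class. Microglia needed at least 40 C1q UMIs per 10000 and a Tmem119 UMI. NK cells needed at least 2 of Ncr1, Klrb1c, Klra8 and Klre1. Thinning drew 1000 UMIs per cell. Scrublet in scanpy 1.11.5, at an expected 6.93%, called 177 of 8662 barcodes (2.04%), so doublets may remain, and called barcodes were kept. Clustering used 1500 variable genes, 15 components, 15 neighbours and Leiden resolution 0.5 (leidenalg 0.10.2, Python 3.11.15, numpy 2.4.6, scipy 1.17.1). TMM factors came from edgeR 4.0.16.

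Besides list genes, the text could name, per comparison, the 10 genes of largest ratio each way. These needed at least 50 UMIs and a UMI in 5% of cells of the higher class. Rule genes and T cell receptor V and J genes were left out of them. The text could also name the 20 genes of highest CPM outside ribosomal and mitochondrial genes. The 8 leading genes per sub-cluster with a UMI in 20% of its cells could be named too. The intervals were tested on simulated counts. Alternatives were other UMI, C1q, receptor gene and Cd4 limits, removal of doublets, thinning, equal weight per cell, TMM, a low-count filter of 50 UMIs and other resolutions.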

Additional observations from a re-analysis of the deposited data

Results flagged for a closer look

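In the CD45-negative library, which the comparisons do not use, 10 barcodes met the same rule. They stood out because cells of a leukocyte type appeared in the subset labelled as lacking CD45. Their median depth was 6195.5 UMIs, 85553 UMIs in all. Icos and Itga4 had a UMI in 8 of the 10 each, Cxcr3 and Ccl5 in 6, Cxcr6 in 5, Il7r in 4, Tnfrsf4 in 3, Tbx21 in 2 and Ifi27l2a in all 10. Ifng had a UMI in 0 of the 10 (Clopper-Pearson interval up to 30.8%). Whether they differ from the 756 cells was not tested.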

How the results depend on the processing

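Each choice was changed on its own. Across 12 settings, the ratios of list and named genes past 2-fold, 362 to 401 per setting, were set beside the reported ones. Summed over settings, 4713 of 4720 values kept their direction, 4550 kept 2-fold and 7 changed sign. The same ratios recur in each setting, so these are not 4720 separate ratios. The 50-UMI filter left every ratio unchanged, and TMM shifted all by a constant too small to turn a ratio past 2-fold. Neither could change a direction. With a C1q limit of 10 the shares were 65.8% for Cxcr3 and 51.5% for Tnfrsf4, and the levels 83.8 CPM for Ifng and 2610 CPM for Ifi27l2a. Asking for 2 or more Cd4 UMIs left 389 cells (5 in the CD45-negative library), with Tnfrsf4 in 52.7%, Ifng at 115, Ccl5 at 1610 and Ifi27l2a at 2840 CPM, and log2 ratios over regulatory T cells of -0.682 for Il15ra and for Spp1. With 3 of 5 receptor genes Ccr9 over CD8 T cells was 0.649. Thinning gave Cxcr3 20%, Ccr7 2.38% and Tnfrsf4 17.6%. Equal weight per cell gave Ifng 29.9 and Ifi27l2a 2760 CPM, and Il17a over NK cells -0.545. TMM left 701 genes lower than in regulatory T cells. The 50-UMI filter, which tests fewer genes, left 564 lower there, 215 higher and 278 lower against CD8 T cells, and 515 higher and 427 lower against NK cells. Resolutions 0.3 and 1.0 gave 3 and 11 sub-clusters. Chosen after seeing the data were 3 settings: without the deepest cell Ifng was 26.4 CPM; without sub-cluster 6 Ccl5 was 1940 CPM, and H2-Aa (-0.313) and Spp1 (-0.871) over regulatory T cells and Ccl2 over NK cells (-0.0532) changed sign; without sub-cluster 5, of 399 ratios 399 kept their direction. Unless stated, the cause was not tested.

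Depth limits detection: a gene with no UMI in the 756 cells is not shown to be absent, and 30 regulatory T cells give wide intervals. No paired analysis was possible because each group has 1 library and no result comes from a test.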
